A study of Mus musculus with 8 samples.

Results

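The collagen chains Col1a2, Col6a3, Col7a1, Col8a1 and Col12a1 were followed across 4 sorted fractions of mouse embryonic stem (ES) cells. Each had 1 named probe, so that 5 of 42006 distinct probes on the array, and 5 of the 29484 probes tested, are described here. They were chosen by name: the study's supplementary list of changed genes pairs probes with symbols, and the copy used here, its first 1998 named rows, holds 11 collagen probes, of which these 5 were taken. Any further probe for these genes among those without a name here would not have been seen. That list was drawn up by the study on these same samples, so a high share of changed genes among its members is not independent evidence of a direction.

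The cells were HV ES cells, which the sample labels call the HIV cell line. They are of strain 129/Ola and carry a knock-in at the Hex locus, in which a tagged Hex cDNA is followed by an internal ribosomal entry site and the fluorescent protein Venus. The parental line expresses the BirA ligase, a modification that all fractions therefore shared. Cells of clones 5.1 and 16.1 were grown for 24 hours with LIF and sorted by flow cytometry for Venus (V), which reports transcription at Hex, an early endoderm gene, and for SSEA-1 (S), a surface antigen of undifferentiated ES cells. Both markers were absent in V-S- cells and present in V+S+ cells, while V-S+ cells had SSEA-1 alone and V+S- cells had Venus alone. Each of these 4 fractions had 1 sample per clone, 8 in all, and no unsorted sample was analysed here. Each line is 1 clone and each clone was hybridised on 1 slide, so that clone and slide cannot be told apart. No source used here says that the samples of a fraction came from more than 1 culture per clone, and p-values measure only the spread between these samples. The series' sample description lists V-S+ a second time where V+S- belongs; the sample titles name all 4 fractions, and groups were taken from the titles.

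Collagens are secreted proteins of the extracellular matrix in which 3 chains wind into a triple helix. The chains are hydroxylated and folded in the endoplasmic reticulum, trimmed after secretion, and cross-linked by lysyl oxidases. Mesenchymal cells are the best known source of fibrillar collagen, whereas the endoderm of the early embryo is known for the type IV collagen of basement membranes. The working name of the set, fibrillar, beaded and short-chain collagens, fits Col1a2 (a fibril-forming chain of type I), Col6a3 (a chain of the beaded filaments of type VI) and Col8a1 (a short-chain collagen of type VIII). Col7a1, the chain of the anchoring fibrils below epithelia, and Col12a1, which attaches to the surface of fibrils, belong to other classes.

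The array carries probes of 60 bases, which the scanner files list as unmapped on the genome. The last 30 bases of each collagen probe, 5′ to 3′, are shown because they are part of what the labelled RNA hybridised to, with letters of a polyadenylation signal on the forward strand in capitals where present. The usual signal is AATAAA. Its common variant, ATTAAA, was searched for as well.
Col1a2: aacctaaATTAAAaaccaaaaacccctgaa
Col6a3: ggagcttggaggtgaaattcaatgtttaaa
Col7a1: aggggacggggcATTAAAgctgctgtttta
Col8a1: agggaggcaacgtatgggttgctctcttca
Col12a1: ctggatactgttccatatcgcttttagacg
The signal letters lay in the last 30 bases of the Col1a2 and Col7a1 probes and of 7.41% of all 42006 probes. The Col1a2 probe had no forward reading frame free of stop codons, whereas 83.4% of all probes had at least 1. No other probe on the array had the sequence of any of the 5.

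The members moved together, and the region before the start of transcription is therefore shown for the 4 that RefSeq's promoter table (build GRCm38.p6) holds: Col1a2 (chr6:4505418-4505617, plus strand), Col6a3 (chr1:90843972-90844171, minus strand), Col7a1 (chr9:108953386-108953585, plus strand) and Col8a1 (chr16:57754738-57754937, minus strand). Each run is the 200 bases before the annotated start, on the strand of the gene, with matches to searched motifs on either strand in capitals. The first motif was CCAAT, the letters of that box. The TATA motif was spelled TATAAA. The GC motif was spelled GGGCGG. For AP-1 the search used TGANTCA.
Col1a2: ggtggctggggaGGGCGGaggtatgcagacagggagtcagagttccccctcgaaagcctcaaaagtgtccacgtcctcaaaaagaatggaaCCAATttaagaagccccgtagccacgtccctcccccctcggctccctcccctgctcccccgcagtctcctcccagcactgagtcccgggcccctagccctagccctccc
Col6a3: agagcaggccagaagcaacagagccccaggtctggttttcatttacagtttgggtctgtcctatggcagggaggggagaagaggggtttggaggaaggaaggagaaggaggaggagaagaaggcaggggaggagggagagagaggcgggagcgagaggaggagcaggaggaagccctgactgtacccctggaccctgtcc
Col7a1: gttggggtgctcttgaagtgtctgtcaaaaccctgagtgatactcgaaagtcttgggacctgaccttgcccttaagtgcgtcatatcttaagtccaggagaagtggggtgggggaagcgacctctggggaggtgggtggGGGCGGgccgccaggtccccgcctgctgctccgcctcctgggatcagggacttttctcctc
Col8a1: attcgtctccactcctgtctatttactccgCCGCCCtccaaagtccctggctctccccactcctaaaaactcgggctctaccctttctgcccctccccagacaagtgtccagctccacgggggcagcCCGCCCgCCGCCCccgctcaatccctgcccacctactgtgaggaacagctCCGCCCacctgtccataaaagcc
A GC box was present in 3 of the 4 windows, with 4 matches in Col8a1 and 1 each in Col1a2 and Col7a1, and in 31% of the 32851 windows of this length in the table. A CCAAT box was present in the Col1a2 window alone, with its first base 109 bases before the start, and in 29.3% of all windows. The TATA letters, found in 9.96% of windows, and the AP-1 letters, found in 5.48%, were in none of the 4. No motif overlapped another in these windows. A match of letters is a description and was not tested as a site.

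Every sample was labelled with Cy3 and hybridised with a Cy5-labelled reference RNA pooled from cultured mouse cell lines, embryo fibroblasts and skin among them. Values are log2 ratios of sample to reference after background correction and loess normalisation, and a negative ratio means less signal in the sample than in the reference pool. Across samples the median Cy3 signal was between 2.36 and 2.87 times its local background, and between 28316 and 29671 probes were well above background. All 5 collagen probes were well above background in both channels in all 16 scanner files, and none was saturated or marked as an outlier. Repeat scans of a sample differed by at most 0.15 on the log2 scale for any of the 5. The dimmest sample signals were those of Col12a1, between 3.06 and 13.1 times background, and Col6a3, between 3.95 and 14.9 times.

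In V+S- cells all 5 collagens stood above the other 3 fractions, in both clones. Col1a2, the alpha 2 chain of type I collagen, had log2 ratios in clone 5.1 of -5.38 in V-S+ cells, -5.08 in V+S+ cells, -5.35 in V-S- cells and -3.69 in V+S- cells. The same probe in clone 16.1 read -5.12, -4.45, -5.18 and -2.90 in that order of fractions. The V+S- samples were the highest in each clone, V+S+ came next, and V-S- differed from V-S+ by 0.03 in clone 5.1 and -0.06 in clone 16.1.

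Col6a3, a chain of the beaded filaments that link cells to fibrils, had log2 ratios in clone 5.1 of -6.81 in V-S+ cells, -6.39 in V+S+ cells, -6.35 in V-S- cells and -5.21 in V+S- cells. In clone 16.1 its ratios were -6.53, -6.26, -6.47 and -4.86. The V+S- samples stood apart, and the remaining 6 samples fell in a narrow band in which V+S+ and V-S- overlapped.

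Col7a1, which forms the fibrils that anchor basement membranes to the tissue below, was the member whose ratios were all positive. Its log2 ratios in clone 5.1 were 0.32 in V-S+ cells, 1.09 in V+S+ cells, 0.37 in V-S- cells and 1.83 in V+S- cells. In clone 16.1 they were 0.39, 1.42, 0.45 and 2.02. The samples fell into 3 separate levels: both Venus-negative fractions together, V+S+ above them, and V+S- above V+S+, with no overlap between levels.

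Col8a1, a network-forming collagen known from blood vessels and the cornea, had log2 ratios in clone 5.1 of -4.03 in V-S+ cells, -3.83 in V+S+ cells, -4.23 in V-S- cells and -2.61 in V+S- cells. In clone 16.1 they were -3.76, -3.33, -4.15 and -2.21. V+S- was highest and V-S- lowest in each clone, while the V+S+ sample of clone 5.1 lay below the V-S+ sample of clone 16.1.

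Col12a1, a collagen of the fibril surface, had log2 ratios in clone 5.1 of -3.40 in V-S+ cells, -3.16 in V+S+ cells, -3.37 in V-S- cells and -2.22 in V+S- cells. In clone 16.1 they were -2.87, -2.61, -3.16 and -1.55. Both V+S- samples exceeded the other 6, and clone 16.1 read above clone 5.1 in each fraction.

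**Figure D1:**
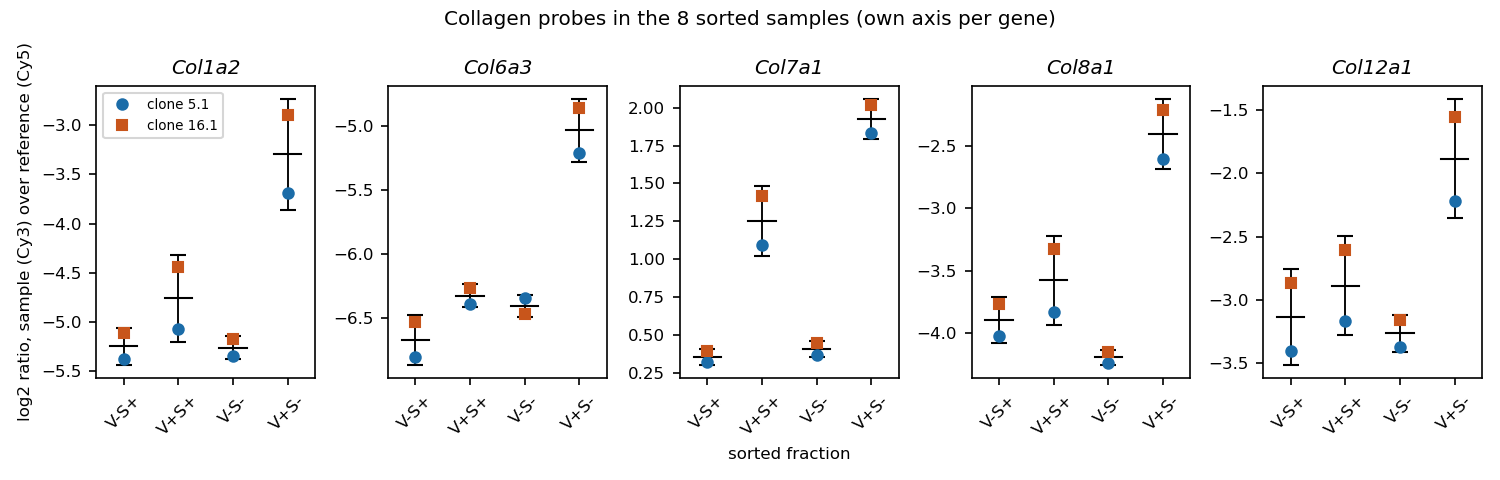
Log2 ratio of sample (Cy3) over reference (Cy5) of the 5 collagen probes in each sorted fraction, with an axis of its own for each gene. Circles are clone 5.1 and squares clone 16.1, and bars are the mean and SD of the 2 clones; the V+S- samples are the highest for all 5 genes, and Col7a1, the one gene with ratios above 0, has V+S+ well between the Venus-negative fractions and V+S-.

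The signal of the reference channel varied less than that of the sample channel for each of the 5. The Cy5 signal of the reference varied across samples by a factor of 1.19 for Col1a2, 1.27 for Col7a1, 1.28 for Col6a3, 1.3 for Col12a1 and 1.44 for Col8a1, whereas the Cy3 signal of Col1a2 ran from 1238 to 7452, that of Col7a1 from 3030 to 12940 and that of Col8a1 from 471.2 to 2420. The reference signal of Col1a2 was between 63510 and 75860, and its ratios were far below 0 in every fraction, V+S- included.

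The first comparison set V+S- cells, with Venus and without SSEA-1, against V-S+ cells. All 5 collagens rose, and 5.73% of all probes tested were called higher in this comparison at a false discovery rate (FDR) of 0.05 and more than 1.5-fold (limma, Benjamini-Hochberg over all probes). Col1a2 rose 3.87-fold, a log2 difference of 1.95 ± 0.30 (SE, n = 2 per fraction; limma adjusted p = 0.0177). Col6a3 rose by a log2 difference of 1.64 ± 0.14 (limma adjusted p = 0.0113) and Col7a1 by 1.57 ± 0.12 (limma adjusted p = 0.0113). Col8a1 rose by 1.49 ± 0.20 (limma adjusted p = 0.0155) and Col12a1 by 1.25 ± 0.30 (limma adjusted p = 0.0392). In bulk samples such as these, a larger number of collagen-producing cells and more collagen RNA per cell cannot be told apart.

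Ranked by log2 difference among all 29484 probes, Col1a2 stood at position 15, Col6a3 at 71, Col7a1 at 94, Col8a1 at 138 and Col12a1 at 370. Col12a1, the dimmest, had a larger difference of 1.51 with scanner-processed signals, and the part of signal level in this order was not tested. The median difference of the 5 was 1.57, and that of all probes was 0.01. The members come from a list of changed genes, so a distance from all probes was in part set by that choice. The groups did not overlap for any of the 5, and 35.6% of all probes were higher without overlap. With clone as a block the 5 calls were kept, beside 8.87% of all probes called higher. Leaving out V-S+ of clone 5.1, V-S+ of clone 16.1 or V+S- of clone 16.1, limma called 1, 2 and 0 of all probes in either direction (2065 with all samples) and no member, and between 6843 and 7589 probes had an unadjusted p under 0.05. The members' log2 differences in these 3 fits were between 0.92 and 2.09. With V-S- of 1 clone or V+S- of clone 5.1 left out, 4 of the 5 passed, Col12a1 being lost, and 960 (V-S-) or 1194 (V+S-) of all probes were called. The direction was kept in each of these fits, and with clone as a block leaving out any 1 sample left all 5 called, an alternative chosen after seeing the data.

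**Figure D2:**
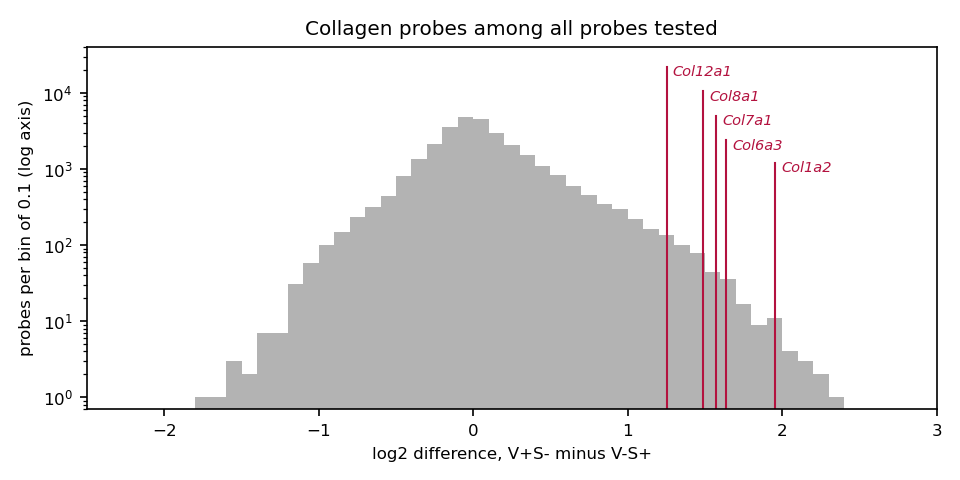
Number of probes by log2 difference of V+S- minus V-S+, in bins of 0.1 with a log axis of counts, over all 29484 probes tested. Vertical lines mark the 5 collagens, which lie between 1.25 and 1.95 in the upper tail.

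V+S- cells were next compared with V-S- cells, both without SSEA-1. All 5 collagens rose again, where 6.3% of all probes were called higher. The log2 differences were 1.97 ± 0.30 for Col1a2, 1.37 ± 0.14 for Col6a3, 1.52 ± 0.12 for Col7a1, 1.78 ± 0.20 for Col8a1 and 1.38 ± 0.30 for Col12a1, each ± SE, with limma adjusted p between 0.00881 and 0.0301. With clone as a block the 5 calls were kept, beside 8.96% of all probes. Groups overlapped for none of the 5, beside 35% of all probes that were higher without overlap. Both comparisons use the same V+S- samples, so they are not independent of each other. When V-S- of clone 5.1 or 16.1, or V+S- of clone 16.1, was left out, limma called no member and 0 of all probes (2298 with all samples), and between 6644 and 7987 probes had an unadjusted p under 0.05. The members' log2 differences in these 3 fits were between 1.05 and 2.05.

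The third comparison asked whether the collagens differed between Venus-positive cells with and without SSEA-1. Under limma without a clone term no probe at all was called in V+S- against V+S+ (0% of those tested, with 4429 at an unadjusted p under 0.05), and the collagens had adjusted p between 0.0962 and 0.22. With clone as a block all 5 were called higher in V+S-, beside 1.75% of all probes, with limma adjusted p between 0.00711 and 0.00832. The log2 differences were 1.46 for Col1a2 (95% interval with the block 1.11 to 1.82), 1.29 for Col6a3 (1.03 to 1.56), 0.67 for Col7a1 (0.49 to 0.85), 1.17 for Col8a1 (0.93 to 1.41) and 1.00 for Col12a1 (0.75 to 1.26). Each was higher in both clones, and the groups did not overlap, beside 21.9% of all probes higher without overlap. With V+S- of either clone left out the block called no member and 0 of all probes, and with V+S+ of clone 5.1 left out it called 1 member and 120 of all probes, where all samples gave 621 in either direction.

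Within SSEA-1-positive cells, V+S+ was compared with V-S+ to ask what differed with Venus where SSEA-1 was present. Col7a1 was the member called by the test with clone as a block, 1 of 5 beside 3.87% of all probes. Its log2 difference was 0.90 (95% interval with the block 0.72 to 1.08; limma adjusted p = 0.00258 with the block and 0.142 without). The other 4 had log2 differences of 0.49 for Col1a2, 0.34 for Col6a3, 0.32 for Col8a1 and 0.25 for Col12a1, with blocked limma adjusted p between 0.058 and 0.141. Their blocked 95% intervals were 0.13 to 0.84 for Col1a2, 0.08 to 0.61 for Col6a3, 0.08 to 0.56 for Col8a1 and -0.0062 to 0.50 for Col12a1. These values moved with single samples: with V+S+ of clone 16.1 left out Col1a2 stood at 0.17, Col8a1 at 0.07 and Col12a1 at -0.029, with V+S+ of clone 5.1 left out they stood at 0.80, 0.57 and 0.525, and Col6a3 ran from 0.21 to 0.48 with either V-S+ sample left out. All 5 differences were positive in both clones, as were those of 39.7% of all probes. Without a clone term limma called no probe, and 5514 had an unadjusted p under 0.05.

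Groups overlapped for Col8a1 and Col12a1 in that comparison and not for Col1a2, Col6a3 and Col7a1, beside 27.6% of all probes higher without overlap. The log2 difference of V+S+ from V-S+ was also set against that of V+S- from V-S+. For Col7a1 it was 51% of the latter in clone 5.1 and 63.1% in clone 16.1. In the same order of clones the share was 18.2% and 30.2% for Col1a2 and 26.2% and 16% for Col6a3. It was 14% and 28.3% for Col8a1, and 20.1% and 19.6% for Col12a1. The share was thus largest for Col7a1 in each clone, and the difference between members was not tested.

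The difference with SSEA-1 among Venus-negative cells was measured by V-S- against V-S+. No member and no other probe was called (limma, with and without clone as a block; 834 probes had an unadjusted p under 0.05 without it). The log2 differences were -0.01 for Col1a2, 0.26 for Col6a3, 0.05 for Col7a1, -0.30 for Col8a1 and -0.13 for Col12a1, all with a limma adjusted p of 1. The 95% intervals without the block reached from -0.75 to 0.72 for Col1a2 and from -0.25 to 0.35 for Col7a1. Blocked intervals were narrower: -0.54 to -0.06 for Col8a1, which was lower in both clones, and -0.0022 to 0.53 for Col6a3. They were -0.37 to 0.34 for Col1a2, -0.13 to 0.23 for Col7a1 and -0.39 to 0.12 for Col12a1. The blocked limma adjusted p was 0.56 for Col8a1 and 0.597 for Col6a3. Groups did not overlap for Col6a3, higher in V-S-, and Col8a1, lower in V-S-, beside 17.8% of all probes higher and 16.5% lower without overlap.

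V+S+ against V-S-, fractions that differ in both markers, gave no call without a clone term (6605 probes at an unadjusted p under 0.05) and 2 of 5 with clone as a block, beside 4.76% of all probes called higher. Those were Col7a1 at a log2 difference of 0.85 (blocked limma adjusted p = 0.00154) and Col8a1 at 0.62 (0.00726). Col1a2 at 0.50 and Col12a1 at 0.38 passed the blocked FDR with adjusted p of 0.0477 and 0.0408 but not the threshold of 1.5-fold, and Col6a3 stood at 0.08. With V+S+ of clone 16.1 left out Col1a2 was at 0.19 and Col12a1 at 0.10, and with V+S+ of clone 5.1 left out they were at 0.82 and 0.66. Over the alternatives run Col8a1 was between 0.37 and 0.87 and Col6a3 between -0.10 and 0.27. Groups did not overlap for Col1a2, Col7a1 and Col8a1, beside 28.8% of all probes higher without overlap. The blocked count was 1 with V-S- or V+S+ of clone 16.1 left out (1267 and 1070 of all probes called in either direction) and 3 with V-S- of clone 5.1 left out (2619 of all probes), where all samples gave 2219. Without a clone term 1 member and 1396 of all probes were called when V+S+ of clone 5.1 was left out.

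Whether the difference with Venus itself differed by SSEA-1 was tested as an interaction, the difference of V+S- and V-S- less that of V+S+ and V-S+. The interaction on the log2 scale was 1.48 for Col1a2, 1.47 for Col8a1, 1.13 for Col12a1, 1.03 for Col6a3 and 0.62 for Col7a1, positive in both clones for all 5. Without a clone term limma called none of them and no other probe (adjusted p between 0.567 and 0.606 for the 5; 2340 probes at an unadjusted p under 0.05). With clone as a block 4 of 5 were called, beside 0.828% of all probes, and Col7a1 was not (limma adjusted p = 0.058). With V+S+ of clone 16.1 left out the block called 4, with Col7a1 in place of Col6a3, and 816 of all probes (254 with all samples). With any other 1 sample left out it called no member and 0 or 1 of all probes. No member was called with scanner-processed signals or the authors' log10 values in place of the loess ratios, both run with the block. The interaction ranked Col1a2 at position 11, Col8a1 at 13, Col12a1 at 69, Col6a3 at 121 and Col7a1 at 626 of 29484.

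**Figure D3:**
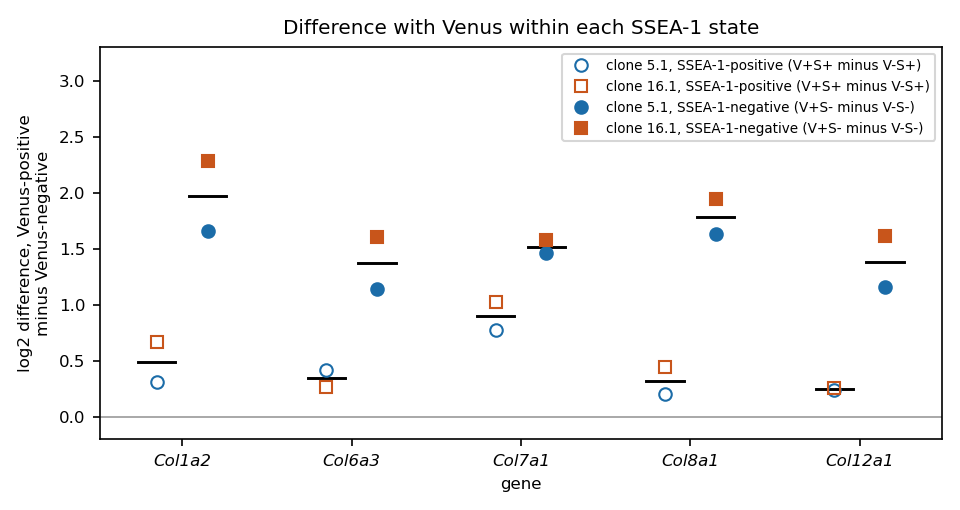
Log2 difference of Venus-positive minus Venus-negative cells for each collagen, in SSEA-1-positive fractions (open symbols) and SSEA-1-negative fractions (filled symbols), by clone, with a line at the mean of both clones. All filled symbols lie above the open ones of the same gene; the gap is smallest for Col7a1 (0.62) and largest for Col1a2 (1.48).

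Clone 16.1 read higher than clone 5.1 for all 5 collagens when fraction was held constant, and no member was called at more than 1.5-fold, beside 1.39% of all probes called higher. The log2 difference was 0.49 for Col12a1 (limma adjusted p = 0.00658), 0.46 for Col1a2 (0.0216) and 0.31 for Col8a1 (0.0223), so that 3 passed the FDR alone. Col7a1 at 0.17 and Col6a3 at 0.16 had adjusted p of 0.0642 and 0.192. Across the probes tested 11688 had an unadjusted p under 0.05 between clones.

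The other genes of collagen biology that the study's list names were read from the same fit. They moved in V+S- against V-S+ as the 5 members did, with the same limit that the study chose them on these samples. Among 39 other collagen chains looked for, 6 were named by a probe and all 6 were called higher, with a median log2 difference of 1.09. Over all probes 5.73% were called higher in this comparison, the share beside which this count and those of the lists that follow stand. They were Col4a5 (1.42), Col4a1 (1.24) and Col4a2 (1.07) of the basement membrane, Col27a1 (1.12) and Col5a2 (0.75) of the fibril-forming class, and Col16a1 (0.84), which associates with fibrils. With clone as a block none of the 6 was called in V+S+ against V-S+, beside 3.87% of all probes.

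Of 19 genes for modification and folding of collagen in the endoplasmic reticulum, 6 were named and 5 were called higher, with a median log2 difference of 0.94. Serpinh1, the collagen chaperone Hsp47, rose by 1.61 ± 0.32 (SE; limma adjusted p = 0.0267), and the lysyl hydroxylases Plod2 and Plod3 and the prolyl isomerases Fkbp10 and Fkbp14 rose as well. Ppib, cyclophilin B, stood at 0.53 and passed the FDR but not the 1.5-fold threshold. All 4 named of 14 genes of procollagen processing and cross-linking were called higher, led by Bmp1, which trims the C-terminal propeptide, at 1.58, with the lysyl oxidase Lox at 1.32, Loxl4 at 1.30 and Loxl2 at 0.77.

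Collagen receptors, 3 named of 10, were all called higher. Itga11, the alpha subunit of a type I collagen receptor, rose by 2.00 ± 0.22 (SE; limma adjusted p = 0.0122), the discoidin receptor Ddr1 by 1.12 and Itgb1, the shared beta subunit, by 0.95. Collagen-binding matrix proteins, 6 named of 12, were all called higher with a median of 1.57, led by periostin, Postn, at 1.99. Tgfbi (1.84), Thbs1 (1.78), Tnc (1.37) and Cthrc1 (1.28) followed on the same log2 scale, and Sparc was the lowest of the 6. Of 10 collagen-degrading enzymes and their inhibitors 5 were named and called higher, with proteases and inhibitors together: Mmp9 at 1.87, Mmp14 at 1.62, Mmp2 at 1.17, Timp3 at 1.16 and Timp1 at 0.81.

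**Figure D4:**
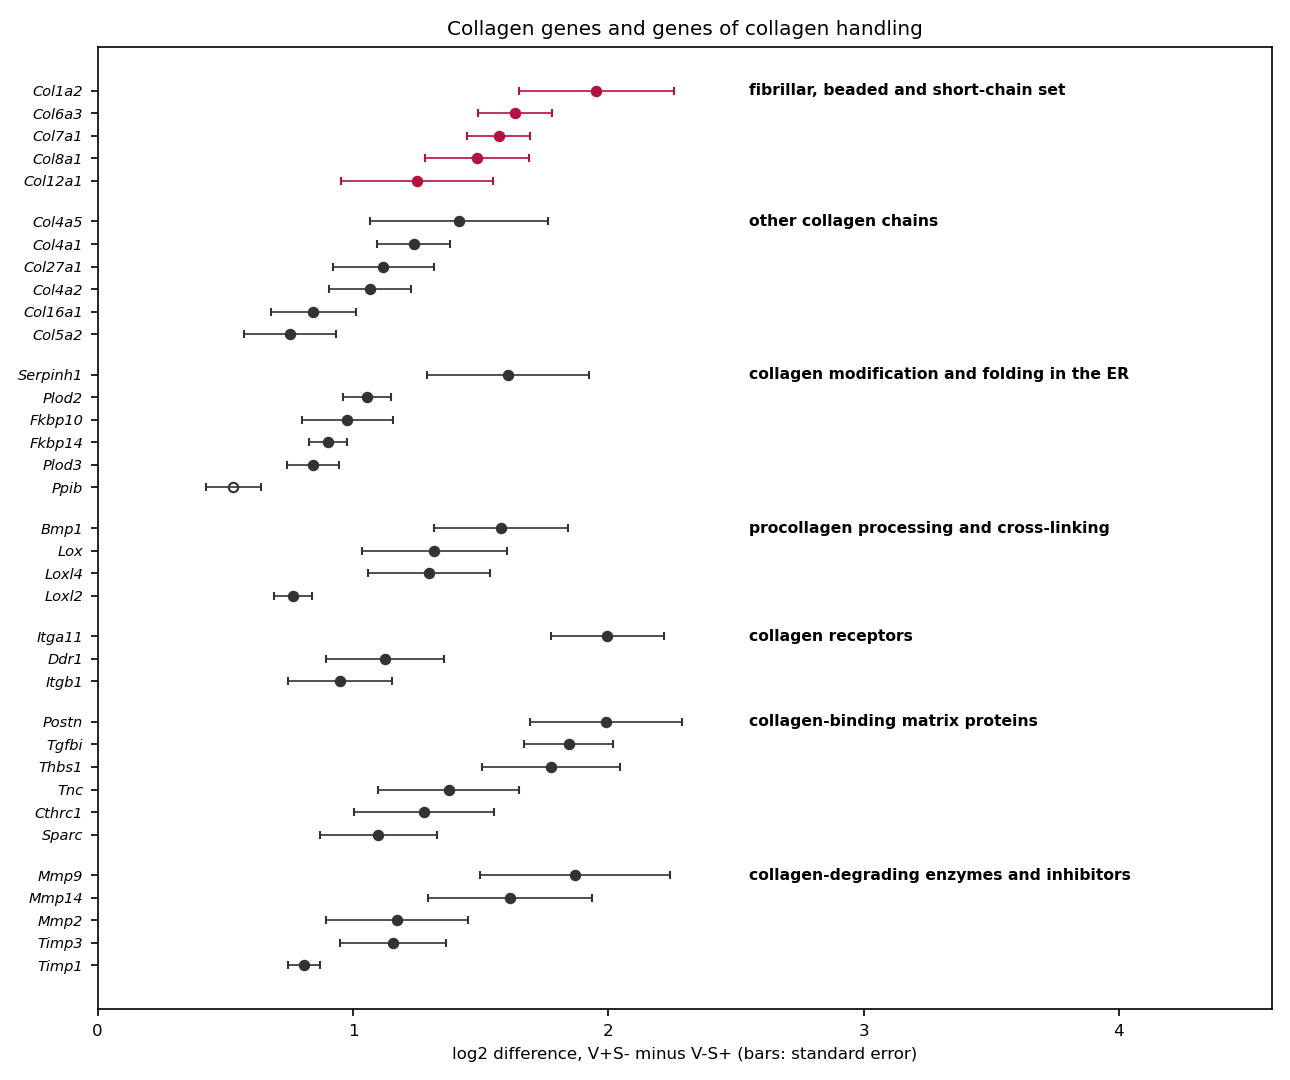
Log2 difference of V+S- minus V-S+ with its standard error for the 5 collagens (top) and the named genes of 6 lists of collagen biology. Filled points passed an FDR of 0.05 at more than 1.5-fold; the open point is Ppib at 0.53, and all points lie above 0.

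In V+S+ against V-S+, with clone as a block, Serpinh1 was called at a log2 difference of 0.86 (limma adjusted p = 0.00445), Itga11 at 0.61 (0.00898) and Bmp1 at 0.74 (0.0053). Lox stood at 0.50 with a blocked limma adjusted p of 0.0367, below the 1.5-fold threshold. The 3 receptors, 3 of 6 matrix proteins, 3 of 5 degrading enzymes and inhibitors, 2 of 4 processing genes and 1 of 6 folding genes were called in that fit, beside the 3.87% of all probes.

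The genes whose pattern over the 8 samples was most like each member were found among the 1997 other probes on the named list. These correlations describe 8 points that share 4 fractions and 2 slides, and no test was made. Col1a2 was followed most closely by Postn, Ecm1 and Tnrc18 (Pearson r = 0.9982, 0.9973 and 0.9972), Col6a3 by Atoh8, Lrp1 and Hlx (0.9954, 0.9934 and 0.9903), and Col7a1 by Agpat4, Gal and Ndfip1 (0.9985, 0.9979 and 0.9963). For Col8a1 these were Adamts4, Alcam and Itga11 (0.9973, 0.9951 and 0.993), and for Col12a1 Ctla2b, Ttc28 and A730054J21Rik (0.9929, 0.9929 and 0.9926). No gene was on the list of more than 1 member. Between the members themselves r ran from 0.89 to 0.98 over 10 pairs.

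Markers of mesenchymal and primitive endoderm cells rose with the collagens in V+S- against V-S+, though not each followed them in every comparison. Of 14 markers of mesenchymal or fibroblast-like cells 9 were named, all well above background in every file, and 6 were called higher in V+S- against V-S+ (9 with clone as a block), beside 5.73% of all probes (8.87% with the block). Their mean log2 ratio was -3.03 and -2.58 in V-S+ (clones 5.1 and 16.1), -2.52 and -1.79 in V+S+, -3.16 and -2.83 in V-S-, and -1.63 and -1.12 in V+S-. Vimentin, Vim, had the largest difference of the list at 2.14. In V+S- against V+S+, where all 5 collagens were higher in both clones, this held for 8 of the 9 markers. Cnn1 stood there at -0.14 (0.07 in clone 5.1 and -0.34 in clone 16.1), and at 1.21 in V+S+ against V-S+. No named marker was at background, and the part of such cells in the collagen result was not tested.

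The 4 named of 10 primitive endoderm markers, Dab2, Gata6, Lrp2 and Sox7, were all called higher in V+S- against V-S+, beside 5.73% of all probes, led by Sox7 at a log2 difference of 1.77. Their mean log2 ratio was -0.98 and -0.88 in V-S+, -0.59 and -0.22 in V+S+, -1.03 and -0.92 in V-S-, and 0.28 and 0.30 in V+S- (clones 5.1 and 16.1). In V+S- against V+S+, 3 of these 4 were higher in both clones. Lrp2 stood there at 0.14 (0.35 in clone 5.1 and -0.08 in clone 16.1), and at 1.08 in V+S+ against V-S+. The 4 named of 10 pluripotency markers, Dppa3, Nanog, Pou5f1 and Tdgf1, were called lower, beside 1.28% of all probes, with Dppa3 at -1.75, and their mean log2 ratio was 1.80 and 1.73 in V-S+ cells, 1.56 and 1.07 in V+S+ cells, 1.59 and 1.67 in V-S- cells and 0.78 and 0.59 in V+S- cells. The 4 pluripotency markers did not move alike in V+S+ against V-S+. Dppa3 differed by -1.37 and Nanog by -0.72, whereas Pou5f1 stood at 0.22 and Tdgf1 at 0.06. The part of either cell state in the collagen result was not tested. Hex itself was not among the named probes used, so the sort was not checked by its own gene.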

How the data were processed

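RNA from 8 sorted samples was measured on two-colour arrays. For each sample the authors deposited the scanner output of 2 repeat scans, 16 files with spot intensity in both channels (Agilent Feature Extraction 9.5.1.1 per the file headers), and 1 series table with log10 values of 25164 probes. Once each probe was centred, these deposited log10 values equalled the scanner software's own ratio of Cy3 to Cy5 (r of 1 in all 8 samples). The level to which each probe was set is unknown.

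Mean signals were corrected with normexp (offset 50), normalised by loess without control spots, and averaged over scans with limma 3.58.1 in R 4.3.3. Outlier spots were treated as missing. A probe was tested if its Cy3 signal was well above background throughout at least 1 fraction and it had a value in every sample, which held for 29484. The model (lmFit and eBayes) had fraction as its only term. Calls required an FDR of 0.05 (Benjamini-Hochberg) and more than 1.5-fold.

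Samples of the same clone number are paired, being the same cell line. Deviations of clones from fraction means correlated across probes between fractions (r from 0.59 to 0.81 over 6 pairs, across probes that are not independent), and fits with clone as a block were run beside the others. The number of arrays limits the precision. Scripts were tested on simulated data. Genes were named by a rule: the 5 members, the 3 probes most correlated with each, and from the lists the other collagen chains, Serpinh1, Lox, Itga11 and the largest difference per list. Further list genes given with values were added after their values were seen. Members and lists were chosen with earlier results of these data known.

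Alternatives were other background corrections and normalisations, other filters, single scans, the authors' values, clone as a block, other tests, and each sample left out. The block with a sample left out, the authors' values or processed signals was chosen after seeing the data.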

Additional observations from a re-analysis of the deposited data

Results flagged for a closer look

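The difference with Venus was larger in SSEA-1-negative than in SSEA-1-positive fractions for 4 collagens by the interaction test with clone as a block, by 1.48 for Col1a2, 1.03 for Col6a3, 1.47 for Col8a1 and 1.13 for Col12a1 on the log2 scale (limma adjusted p = 0.0435, 0.0471, 0.0357 and 0.0378). Over all probes 0.828% were called higher by this test. Without the block none of the 4 passed. The blocked test called no member with any 1 of 7 samples left out, all but V+S+ of clone 16.1, nor with scanner-processed signals or the authors' log10 values.

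In 3 cases the clones went opposite ways, with 1 sample of each fraction per clone, so that the difference between clones was not tested. In V-S- against V-S+, Col1a2 differed by 0.034 in clone 5.1 and -0.062 in clone 16.1, and Col12a1 by 0.033 and -0.295. In V+S+ against V-S-, Col6a3 differed by -0.042 in clone 5.1 and 0.205 in clone 16.1. Fractions held 2 samples each, and no sample was tested as an outlier.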

How the results depend on the processing

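With clone as a block (replicate block) the members called went from 0 to 5 in V+S- against V+S+, 0 to 1 in V+S+ against V-S+, 0 to 2 in V+S+ against V-S- and 0 to 4 for the interaction, and no other count of members changed. The block with the authors' log10 values or with scanner-processed signals called 5, 1 and 2 in those 3 pairs and 0 for the interaction, beside 423, 1605, 2228 and 0 of all 18299 probes with the authors' values and 670, 1914, 2910 and 0 of all 29484 with processed signals. The unmoderated test called 2 of 5 in V+S- against V-S+ and 2 in V+S- against V-S-, beside 337 and 358 of all probes (2065 and 2298 in the moderated test). With scanner-processed signals and no block, Col12a1 missed the threshold in V+S- against V-S+ (log2 difference 1.51, limma adjusted p = 0.0561), as it did when only the 2 fractions compared were fitted (1.25, limma adjusted p = 0.062). In the comparison of clones the processed signals and the authors' values each called 1, Col12a1, beside 1354 of 29484 and 994 of 18299 probes.

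Leaving out 1 sample without the block gave 0 to 5 in V+S- against V-S+, 0 to 5 in V+S- against V-S-, 0 to 1 in V+S+ against V-S- and 0 in the other comparisons, beside 0 to 2644, 0 to 2841 and 0 to 1396 of all probes in those 3 pairs. With the block the ranges were 5 to 5, 5 to 5, 0 to 5 (V+S- against V+S+), 1 to 1 (V+S+ against V-S+), 0 to 0 (V-S- against V-S+), 1 to 3 (V+S+ against V-S-) and 0 to 4 (interaction), beside 2600 to 4295, 2759 to 4307, 0 to 1015, 583 to 2739, 0 to 5, 1070 to 3167 and 0 to 816 of all probes in that order. Where a fraction kept 1 sample, it was assumed to vary like the others.

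No member reversed in V+S- against any fraction or in the interaction under any alternative run. Col12a1 in V+S+ against V-S+ reversed to -0.019 without V-S+ replicate 1 and -0.029 without V+S+ replicate 2 (range over samples left out -0.029 to 0.525). In V-S- against V-S+, Col7a1 reversed to -0.15 with median centring, Col1a2 to 0.016 with the first scan alone, 0.07 without V-S- replicate 1 and 0.12 without V-S+ replicate 2, and Col12a1 to 0.136 without V-S+ replicate 2 (range over samples left out -0.398 to 0.136). With the block, Col1a2 reversed there to 0.12 without V-S+ replicate 1 and 0.18 without V-S- replicate 2, Col7a1 to -0.0072 without V-S- replicate 1 and -0.0097 without V-S+ replicate 2, Col12a1 to 0.058 without V-S- replicate 2, and in V+S+ against V-S- Col6a3 to -0.10 without V-S- replicate 2. Replicates 1 and 2 are clones 5.1 and 16.1. Median centring moved the median of all probes to 0.13 in V+S- against V-S-, -0.12 in V-S- against V-S+ and 0.20 for the interaction. The member values under it are not adjusted for these medians, and it changed no count of members called. Beyond the block, leaving samples out and the change of centring, the cause of these moves was not tested.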
